A study of Mus musculus with 8 samples.

Results

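Inhibitory receptors limit how strongly a T cell responds to its antigen, and 6 of them were examined together with the nuclear factor Tox in the T cells that entered beta cell grafts. The 7 genes, Pdcd1, Lag3, Havcr2, Tigit, Ctla4, Tox and Cd160, were taken by name, all 7 were found among the 32285 genes of the count table, and their level was taken as CPM, the unique molecular identifiers (UMIs) of the gene relative to all UMIs of a cell type in a graft on the counts-per-million scale. WT NIT-1 cells, a beta cell line derived from a NOD mouse, and NIT-1 cells carrying a mutation of the gene Rnls (Rnls mut) were placed under the skin of opposite flanks of NOD.scid mice, which make no T or B cells of their own. All mice then received autoreactive splenocytes of recently diabetic NOD mice by vein 4 days after the NIT-1 cells, and the grafts were taken 10 or 17 days after that transfer. Living CD45+ cells were sorted from 4 grafts per genotype and day, each graft was marked with a hashtag antibody, and the 4 grafts of a genotype and day were run as 1 droplet library (10x Genomics 3' v3.1). The 4 groups are therefore WT day 10, WT day 17, Rnls mut day 10 and Rnls mut day 17, with 16 grafts in all and no group without splenocytes. Rnls was changed in the NIT-1 cells, which the CD45+ sort leaves out, so the level of Rnls in these cells does not check the genotype. The age of the mice is not given in the sources used here.

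The table held 22441 cells with at least 1001 and at a median 3520 UMIs, and a graft contributed 350 to 1967 cells. The authors named 12 cell types, and 4876 cells were CD4 T cells, 3449 CD8 T cells and 505 regulatory T cells. Fewer T cells were recovered at day 17. A WT graft then gave 18 to 81 CD8 T cells against 345 to 443 at day 10, and an Rnls mut graft 43 to 143 against 258 to 384. The CD4 T cells were 57 to 287 against 221 to 528 in WT and 91 to 412 against 224 to 614 in Rnls mut grafts. Cells of all types also numbered 350 to 1112 per WT graft at day 17 against 1865 to 1967 at day 10. In Rnls mut grafts they numbered 546 to 1932 against 1516 to 1839. These are counts of recovered cells and not the share of T cells in a graft. In the UMI sums of a type, fewer transcripts per cell and fewer transcribing cells cannot be told apart. Since 1 library held 1 genotype at 1 day, group and library cannot be told apart either. Between libraries, 42 cell barcodes occurred more than once, in 84 cells.

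The names of the T cell types were checked against their defining genes. Cd3e, a chain of the T cell receptor complex, stood at 966 CPM in CD4 T cells, 1038 in CD8 T cells and 1216 in regulatory T cells, against 1.7 in macrophages. Cd8b1, a chain of the CD8 co-receptor, stood at 529 CPM in CD8 T cells and 22.8 in CD4 T cells, and Cd4 at 264 in CD4 T cells and 28.6 in CD8 T cells. Foxp3, the factor that defines regulatory T cells, stood at 303 CPM in these and at 1.0 and 0.2 in CD4 and CD8 T cells. The cells annotated Stem-Progenitor held Cd3e at 473 CPM and were led by histone and mitosis genes in 1 cluster and by granzyme genes in the other, so their name is used only as deposited.

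A T cell that meets its antigen first puts CTLA-4 and PD-1 on its surface, and persistent antigen keeps several inhibitory receptors present at once, a state named exhaustion in chronic infection and tumors. PD-1 (Pdcd1) binds PD-L1 and PD-L2 and dampens signaling near the T cell receptor, CTLA-4 (Ctla4) competes with CD28 for CD80 and CD86, LAG-3 (Lag3) binds MHC class II, TIM-3 (Havcr2) binds galectin-9 and phosphatidylserine, TIGIT (Tigit) binds the poliovirus receptor, and CD160 (Cd160) binds HVEM. Tox, a nuclear HMG-box protein, is needed for exhausted T cells to persist, and regulatory T cells carry CTLA-4 and TIGIT without being exhausted. In type 1 diabetes, blocking PD-1 or CTLA-4 can bring on or speed the disease.

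All 7 are protein-coding genes. In GRCm38 with the GENCODE annotation vM21, Pdcd1 lies at chr1:94038305-94052553 on the minus strand, Ctla4 at chr1:60887000-60915832 on the plus strand, Lag3 at chr6:124904361-124911705 on the minus strand, Havcr2 at chr11:46454935-46481255 on the plus strand, Tigit at chr16:43648867-43664146 on the minus strand, Tox at chr4:6686353-6991557 on the minus strand and Cd160 at chr3:96798763-96829351 on the minus strand. The 250 bases before the RefSeq start of transcription were read for 5 of the 7 genes from RefSeq's GRCm38.p6 table. They were searched on both strands for the core of NFAT sites (GGAAA or TTTCC) and for the AP-1 site (TGANTCA), since NFAT and AP-1 carry the T cell receptor signal to DNA. Among all 32536 such windows, 55.7% hold the NFAT core and 6.73% the AP-1 site, and the letters searched do not overlap. The windows of the receptors that moved with the day in CD4 and CD8 T cells (Ctla4, up; Havcr2, down) are shown beside that of Pdcd1, which did not pass the test, with matches in capitals; the Ctla4 window is at chr1:60908775-60909024 (plus strand), the Havcr2 window at chr11:46454681-46454930 (plus strand) and the Pdcd1 window at chr1:94052554-94052803 (minus strand).
Ctla4: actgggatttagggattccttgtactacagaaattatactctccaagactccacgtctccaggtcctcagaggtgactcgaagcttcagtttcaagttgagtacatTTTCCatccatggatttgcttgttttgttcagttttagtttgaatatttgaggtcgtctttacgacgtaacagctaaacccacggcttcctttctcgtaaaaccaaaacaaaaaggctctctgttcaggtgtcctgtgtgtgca
Havcr2: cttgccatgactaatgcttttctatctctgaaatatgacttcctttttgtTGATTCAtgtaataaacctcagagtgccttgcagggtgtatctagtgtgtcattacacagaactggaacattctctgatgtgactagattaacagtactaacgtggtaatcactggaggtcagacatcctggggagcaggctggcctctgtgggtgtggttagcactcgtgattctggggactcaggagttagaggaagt
Pdcd1: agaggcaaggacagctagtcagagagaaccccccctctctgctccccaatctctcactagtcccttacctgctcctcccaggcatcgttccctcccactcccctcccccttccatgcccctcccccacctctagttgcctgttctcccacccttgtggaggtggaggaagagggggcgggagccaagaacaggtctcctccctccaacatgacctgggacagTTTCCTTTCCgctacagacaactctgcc
The RefSeq start of Ctla4 lies inside the GENCODE span given above, whose first base belongs to another transcript that begins upstream, so that window is not at the edge of the span. The Ctla4 window holds 1 NFAT core, which begins 144 bases before the start, and no AP-1 site. The Havcr2 window holds 1 AP-1 site, 200 bases before the start, and no NFAT core, and the Pdcd1 window holds 2 NFAT cores, at 28 and 23 bases. A match of letters is a description of the window and not a site, and the absence of one says only that these letters are not in it.

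The first question was which cells of the graft transcribed the 7 genes. By the median over all grafts, regulatory T cells stood highest for Ctla4, Tox and Tigit and CD8 T cells for Havcr2 and Lag3. Type 1 innate lymphoid cells (ILC1) stood highest for Pdcd1 and Cd160, as the plot of levels by cell type shows. The order for Havcr2 held at day 10 only. At day 17 its median was 114 CPM in CD8 T cells, against 314 in dendritic cells and 262 in monocytes. These are levels of cell types named from the same cells, and are given with no test.

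**Figure D1:**
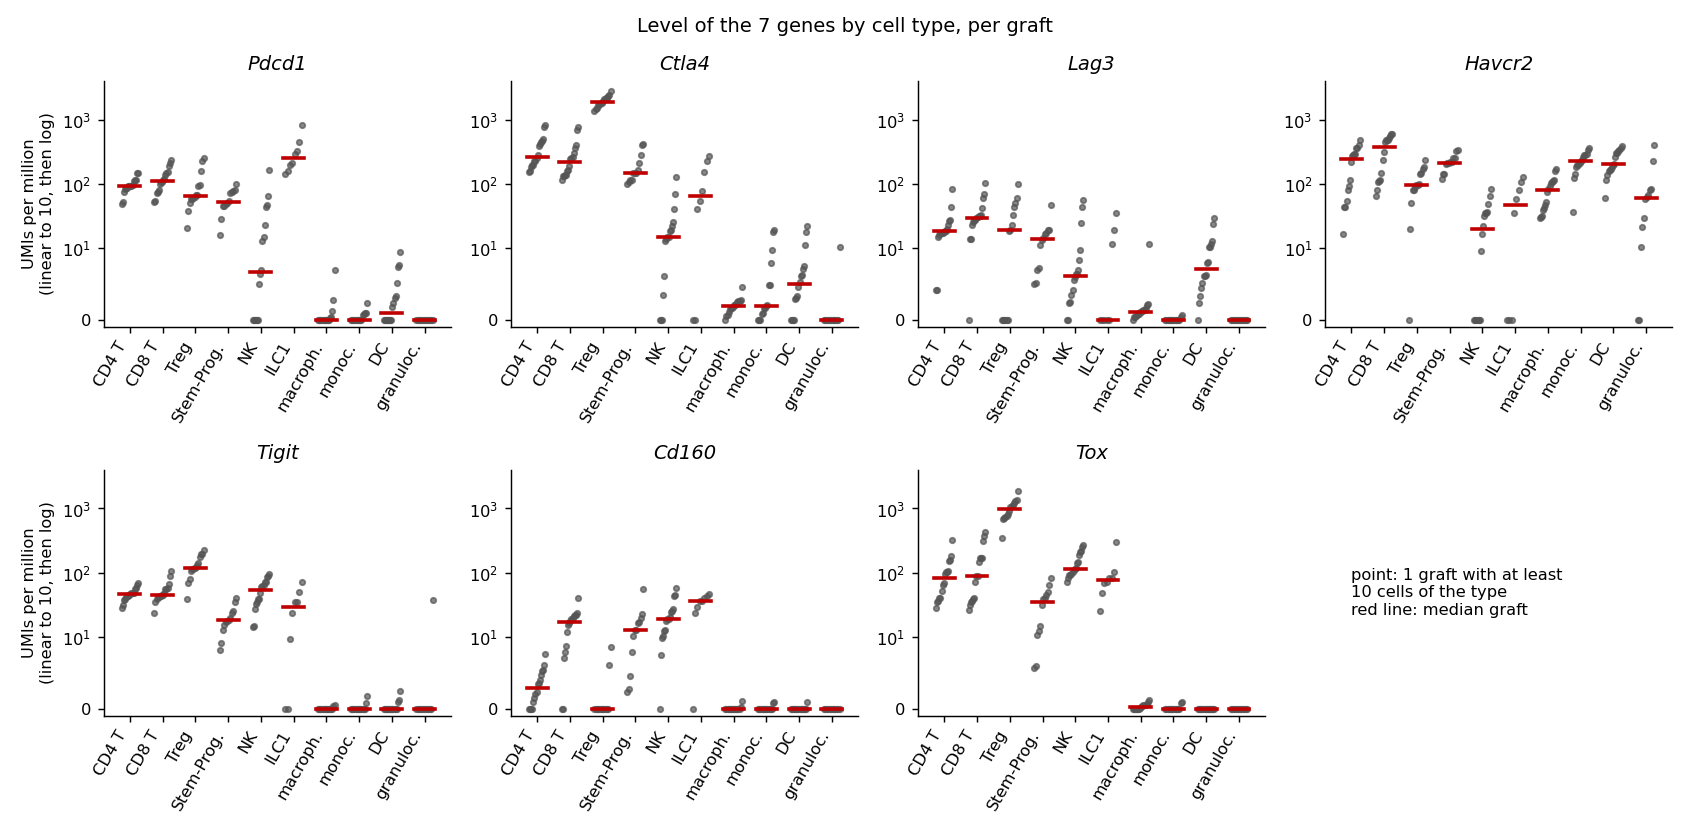
Level of each of the 7 genes (CPM, 1 panel per gene) in 10 cell types; each point is 1 graft with at least 10 cells of the type and the red bar is the median over grafts. Regulatory T cells hold the highest Ctla4 (median 1864) and Tox (median 991), and Havcr2 is also seen in monocytes and dendritic cells (medians 229 and 202).

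Ctla4 in regulatory T cells ran from 1360 to 2819 CPM over 14 grafts with a median of 1864. The median was 268 in CD4 T cells (156 to 823, 16 grafts) and 219 in CD8 T cells (114 to 764), and regulatory T cells were above both in 14 of 14 grafts. CD8 T cells were above CD4 T cells in 0 of 16 grafts, so these neighbours kept 1 order within grafts although their ranges overlap. Thinned to 1000 UMIs per cell, 75.1% of regulatory T cells (88.7% unthinned), 19.9% of CD4 T cells (39.8%) and 14.2% of CD8 T cells (29.2%) held a Ctla4 UMI, against 0.18% (0.95%) of macrophages, a type that should lack it. The median depths behind the unthinned shares were 2444, 2823.5, 2555 and 4719 UMIs per cell.

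Tox in regulatory T cells had a median of 991 CPM (344 to 1871) and was above CD4 and CD8 T cells in 14 of 14 grafts. The next levels were close to each other: NK cells had a median of 116 (73.0 to 270), CD8 T cells 88.3 (26.6 to 424), CD4 T cells 82.0 (28.0 to 320) and ILC1 77.1 (25.4 to 305, 8 grafts). CD8 T cells were above CD4 T cells in 7 of 16 grafts and NK cells above CD8 T cells in 12 of 16. These levels pool both days. At day 10 NK cells had a median of 103 (73.0 to 145) against 37.5 (26.6 to 88.0) in CD8 T cells. At day 17 the medians were 197 (92.7 to 270) and 169 (88.6 to 424). No Tox UMI was counted in dendritic cells, and macrophages held 12 among 39416366 UMIs. Tox is also used by developing NK cells and ILCs.

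Tigit had its highest median in regulatory T cells, 119 CPM (39.4 to 224), above CD4 T cells in 13 of 14 grafts. NK cells at 53.5 (14.5 to 96.5), CD4 T cells at 46.0 (28.0 to 68.9) and CD8 T cells at 44.9 (23.7 to 108) overlapped, and CD8 T cells were above CD4 T cells in 8 of 16 grafts. Myeloid types were at or near 0, with 2 Tigit UMIs in all macrophages.

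Havcr2 was the member that T cells shared with myeloid cells. Its median was 382 CPM (65.0 to 608) in CD8 T cells and 247 (16.5 to 484) in CD4 T cells, followed by monocytes at 229 (36.2 to 368), dendritic cells at 202 (59.9 to 387), regulatory T cells at 98.1 (0 to 241) and macrophages at 79.8 (29.8 to 171). CD8 T cells were above CD4 T cells in 14 of 16 grafts and monocytes above macrophages in 15 of 15. These ranges pool both days, and the order of CD4 T cells, monocytes and dendritic cells changed with the day. At day 10 CD4 T cells had a median of 291 (222 to 484), monocytes 205 (125 to 291) and dendritic cells 163 (59.9 to 207). At day 17 the medians were 67.0 (16.5 to 358), 262 (36.2 to 368) and 314 (196 to 387). At 1000 UMIs per cell, 30.2% of CD8 T cells (50.5% unthinned), 17.0% of CD4 T cells (33.6%) and 19.5% of monocytes held a Havcr2 UMI.

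Pdcd1 was highest in ILC1, innate lymphocytes that produce interferon gamma, at a median of 254 CPM (143 to 821) and above CD8 T cells in 8 of 8 grafts. CD8 T cells at 111 (52.2 to 240) and CD4 T cells at 93.3 (49.5 to 150) overlapped, with CD8 T cells higher in 10 of 16 grafts. NK cells were at 6.68 (0 to 167) and macrophages held 17 UMIs in all.

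Lag3 and Cd160 were low in every type. Lag3 had a median of 30.2 CPM (0 to 103) in CD8 T cells, which was above CD4 T cells (18.4, 4.12 to 84.1) in 13 of 16 grafts, and 2.61% of CD8 T cells held a UMI at 1000 UMIs per cell. Cd160 had a median of 35.8 in ILC1 (0 to 47.2), 19.3 in NK cells (0 to 57.9), 17.2 in CD8 T cells (0 to 39.9) and 2.86 in CD4 T cells (0 to 7.67). In regulatory T cells it was at 0 in 12 of 14 grafts, with 3 UMIs in all.

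The second question was how the 7 genes differed between day 10 and day 17, when autoimmune attack had gone on longer. UMIs were summed per graft and T cell type and fitted over all genes with edgeR's quasi-likelihood test, with the mean of both genotypes as the main comparison and Benjamini-Hochberg adjustment over all genes tested. Among CD8 T cells, Tox and Ctla4 were higher and Havcr2 was lower at day 17. The same members passed in the same directions in CD4 T cells, and Tox alone passed in regulatory T cells. Pdcd1 passed in none of the 3 types in this fit, which has no block on the hashtag number. The fit treats the WT and Rnls mut grafts of a mouse as independent. Its day p-values over both genotypes therefore do not measure the spread between mice.

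**Figure D2:**
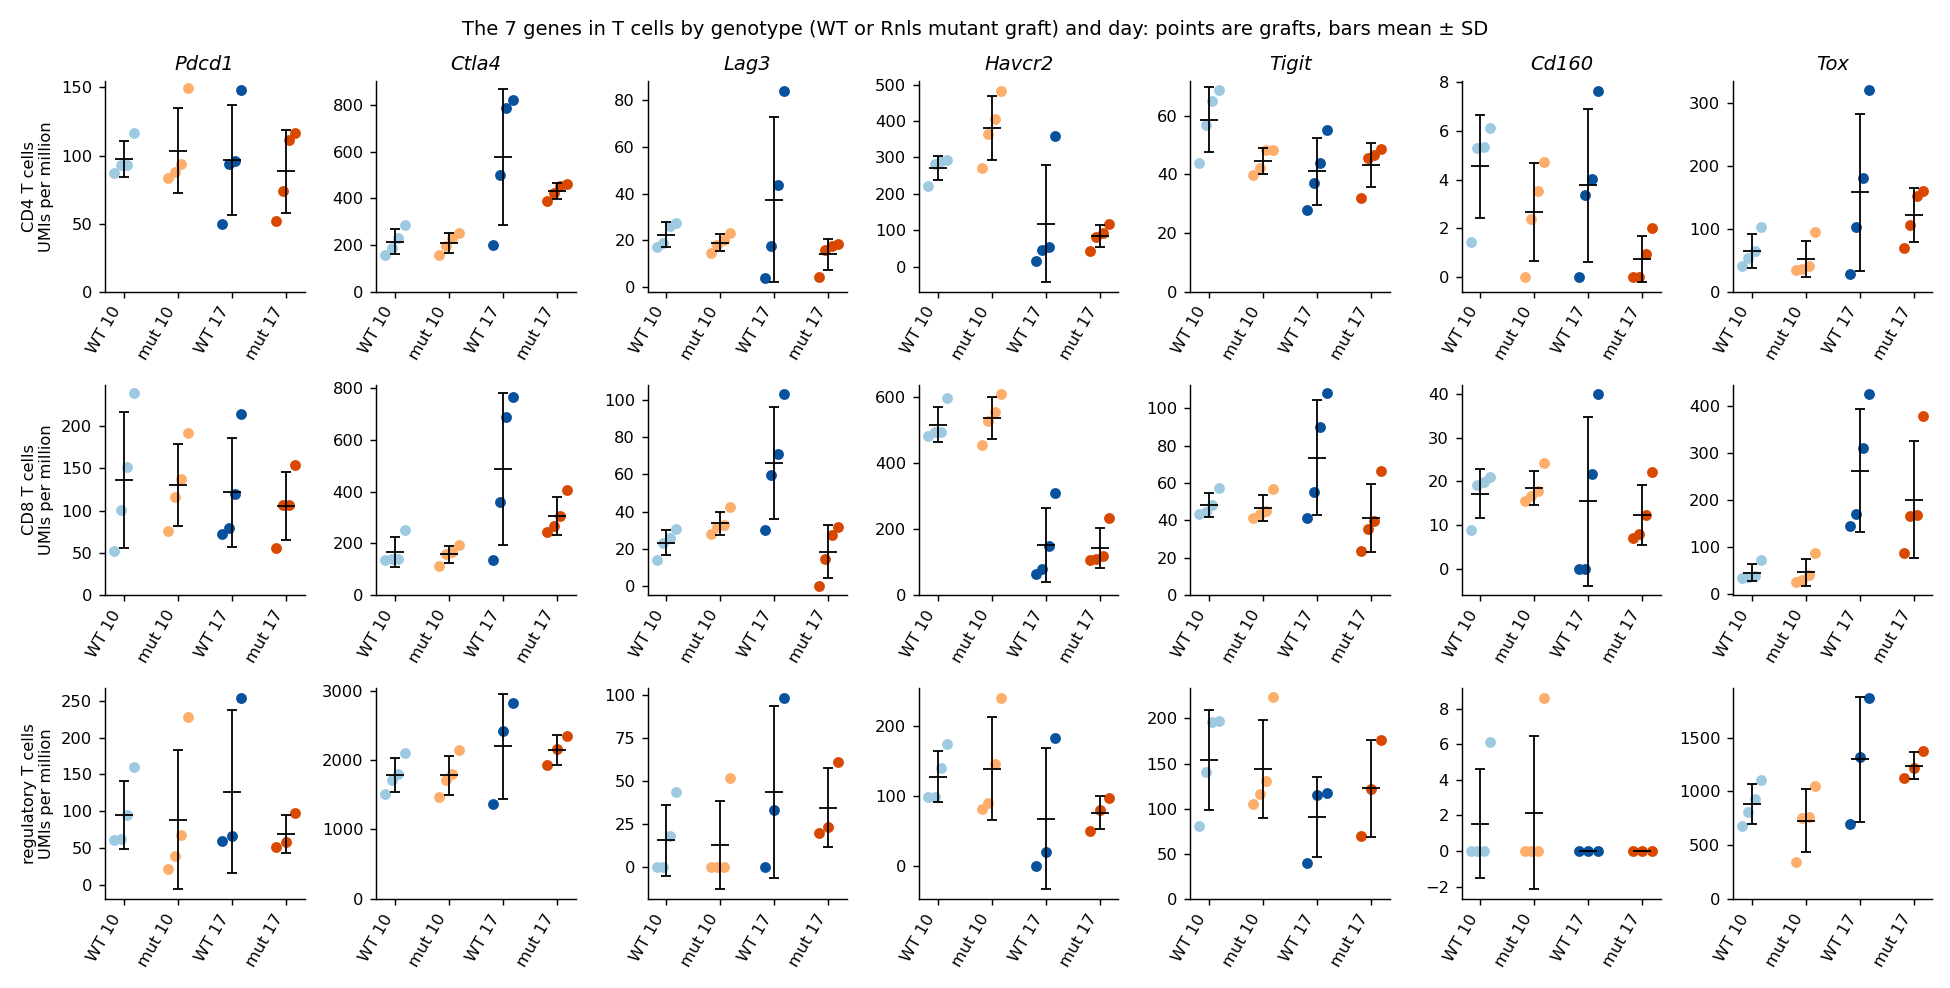
Level of the 7 genes (CPM) in CD8, CD4 and regulatory T cells of the 4 groups; points are grafts, and the bar and whisker are the mean and SD over 4 grafts (3 for regulatory T cells at day 17). In CD8 T cells the day 17 grafts lie above the day 10 grafts for Tox (88.6 to 424 against 26.6 to 88.0) and below them for Havcr2 (65.0 to 310 against 455 to 608).

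In CD8 T cells, 3 of 7 members passed, 2 higher and 1 lower, while 21.4% of the 6379 genes tested passed, 10.6% higher and 10.8% lower (678 and 687 genes). Without TMM scaling the called genes split into 1032 higher and 380 lower and the median of all genes moved by 0.13 on the log2 scale, and the 3 members kept their directions and passed.

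Tox in CD8 T cells of WT grafts 1 to 4 stood at 72.0, 36.1, 35.1 and 38.9 CPM at day 10 and at 424, 145, 310 and 170 at day 17. In Rnls mut grafts the values were 88.0, 31.1, 26.6 and 40.7 at day 10 and 168, 167, 379 and 88.6 at day 17. Every day 17 graft was above every day 10 graft of either genotype. Day 17 over day 10 gave a log2 fold change of 2.30 ± 0.25 (SE; adjusted p = 1.1e-07), at 2.47 ± 0.36 within WT grafts (adjusted p = 2.2e-05) and 2.13 ± 0.36 within Rnls mut grafts (adjusted p = 0.00018). Within a genotype, 4 of 7 members passed in WT grafts and 3 of 7 in Rnls mut grafts, against 11.7% and 10.5% of all genes. The share of CD8 T cells with a Tox UMI at 1000 UMIs per cell was 2.7 to 6.4% over the 8 day 10 grafts and 8.5 to 25.7% over the 8 day 17 grafts.

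Ctla4 in CD8 T cells stood at 251, 140, 135 and 140 CPM in WT grafts at day 10 and at 688, 135, 764 and 360 at day 17. In Rnls mut grafts it stood at 194, 167, 114 and 159 and then at 265, 306, 407 and 244. The Rnls mut grafts of the 2 days did not overlap, and WT graft 2 at day 17, with 45 cells, was as low as the day 10 grafts. This gave a log2 fold change of 1.15 ± 0.20 (adjusted p = 0.00013), at 1.39 ± 0.28 in WT (adjusted p = 0.0015) and 0.91 ± 0.29 in Rnls mut grafts (adjusted p = 0.041). The Rnls mut call was lost with DESeq2 (0.89, adjusted p = 0.100) and in 11 of 16 fits without 1 graft (adjusted p of 0.0505 to 0.189), and the WT call without graft 1 of day 17 (0.98, adjusted p = 0.058).

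Havcr2 in CD8 T cells fell from 597, 482, 493 and 493 CPM to 149, 65.0, 310 and 79.9 in WT grafts. In Rnls mut grafts it fell from 455, 526, 608 and 554 to 107, 117, 233 and 111. No day 17 graft reached the lowest day 10 graft. It changed by -2.0 ± 0.17 on the log2 scale (adjusted p = 9.1e-10), with -2.03 ± 0.25 in WT (adjusted p = 2.3e-06) and -1.97 ± 0.23 in Rnls mut grafts (adjusted p = 6.4e-07). At 1000 UMIs per cell, 31.0 to 40.6% of CD8 T cells of a graft held a Havcr2 UMI at day 10 and 4.3 to 16.7% at day 17.

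The other 4 members did not pass in CD8 T cells over both genotypes. Pdcd1 averaged 133 ± 61.1 CPM (SD, n = 8 grafts) at day 10 and 114 ± 50.7 at day 17, with a log2 fold change of -0.20 ± 0.27 (adjusted p = 0.66). Tigit averaged 47.5 ± 6.09 and 57.5 ± 29.1 (0.09 ± 0.19, adjusted p = 0.80), Cd160 17.9 ± 4.54 and 13.9 ± 13.5 (-0.60 ± 0.39, adjusted p = 0.28) and Lag3 28.4 ± 8.23 and 42.2 ± 33.7 (0.31 ± 0.26, adjusted p = 0.43). Behind the day 17 means of Cd160 and Lag3 were 21 and 66 UMIs, so only large differences were detectable for them at this depth.

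**Figure D3:**
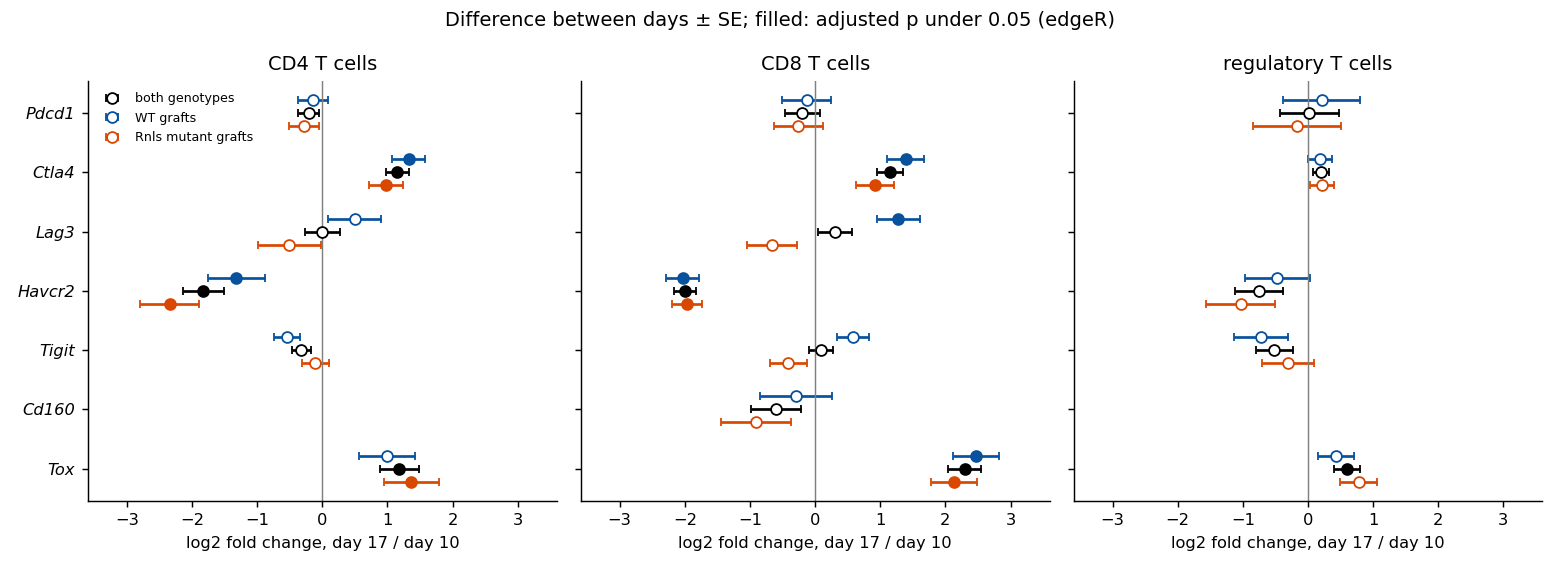
Log2 fold change of day 17 over day 10 (± SE, edgeR) for the 7 genes in CD8, CD4 and regulatory T cells, over both genotypes and within WT and Rnls mut grafts; filled points have an adjusted p under 0.05. Tox and Ctla4 lie above 0 and Havcr2 below 0 in CD8 and CD4 T cells, and in CD8 T cells the WT and Rnls mut values lie on opposite sides of 0 for Lag3 (1.28 and -0.66) and Tigit (0.58 and -0.41).

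In CD4 T cells, 3 of 6 members tested passed, again Tox and Ctla4 higher and Havcr2 lower, against 36.6% of 7858 genes (18.8% higher and 17.7% lower, or 1480 and 1394 genes). Within a genotype, 2 of 6 members passed in WT grafts and 3 of 6 in Rnls mut grafts, against 20.7% and 22.5% of all genes. Without TMM scaling 2131 genes were called higher and 854 lower, the median of all genes moved by 0.14, and the 3 members still passed in the same directions.

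Ctla4 in CD4 T cells stood at 283, 185, 231 and 158 CPM in WT grafts at day 10 and at 784, 198, 823 and 499 at day 17. The Rnls mut grafts were at 252, 195, 156 and 228 and at 389, 462, 452 and 423. The days did not overlap for Rnls mut, and for WT only graft 2 at day 17 lay within the day 10 range. For Ctla4 the log2 fold change was 1.15 ± 0.18 (adjusted p = 3.6e-05), at 1.33 ± 0.25 in WT (adjusted p = 0.00074) and 0.98 ± 0.26 in Rnls mut grafts (adjusted p = 0.0086).

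Tox in CD4 T cells was at 103, 63.9, 40.3 and 52.6 CPM in WT grafts at day 10 and at 103, 181, 28.0 and 320 at day 17. The Rnls mut grafts were at 94.3, 36.7, 34.8 and 40.2 and at 153, 106, 160 and 69.7. Both genotypes overlapped between days. For Tox the log2 fold change was 1.18 ± 0.30 (adjusted p = 0.0038), and 1.37 ± 0.42 within Rnls mut grafts (adjusted p = 0.024), while within WT grafts it was 1.00 ± 0.43 and did not pass (adjusted p = 0.11). The Rnls mut call was lost with DESeq2 (1.19, adjusted p = 0.14) and without any 1 of 5 Rnls mut grafts (grafts 2, 3 and 4 of day 10 and 1 and 3 of day 17; adjusted p of 0.064 to 0.107), and the WT value ran from 0.42 to 1.35 with 1 graft left out and passed without graft 3 of day 17 (adjusted p = 0.0073).

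Havcr2 in CD4 T cells was at 222, 282, 292 and 290 CPM in WT grafts at day 10 and at 44.5, 16.5, 358 and 53.9 at day 17. The Rnls mut grafts fell from 272, 406, 484 and 364 to 91.9, 43.5, 80.1 and 116. WT graft 3 at day 17, with 69 CD4 T cells, was the 1 day 17 graft not below the day 10 grafts, and it also held the lowest Tox. The log2 fold change was -1.83 ± 0.31 (adjusted p = 9.7e-05), with -2.34 ± 0.45 in Rnls mut (adjusted p = 0.00085) and -1.32 ± 0.44 in WT grafts (adjusted p = 0.034). The WT call was lost with DESeq2 (-1.37, adjusted p = 0.138), without TMM scaling (-1.14, adjusted p = 0.062), without the 5% of cells with the most UMIs (-1.25, adjusted p = 0.062), without cells of the other co-receptor (-1.23, adjusted p = 0.054) and without any 1 of 6 WT grafts, and with 1 graft left out it ran from -2.87 to -0.89, without WT grafts 3 and 1 of day 17. Without WT graft 3 of day 17 the values over both genotypes were -2.61 for Havcr2 (adjusted p = 5.7e-11) and 1.37 for Tox (adjusted p = 9.5e-05).

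Pdcd1, Tigit and Lag3 did not pass in CD4 T cells in the main fit, which has the filter on low counts and no block. Pdcd1 averaged 100.5 ± 22.3 CPM (SD, n = 8) at day 10 and 92.6 ± 33.6 at day 17 (-0.21 ± 0.16, adjusted p = 0.33), and Tigit 51.6 ± 10.9 and 42.1 ± 9.06 (-0.32 ± 0.14, adjusted p = 0.081). Also without a block, Tigit passed with no filter on low counts (-0.40, adjusted p = 0.035). It passed too without WT graft 2 of day 10 (-0.39, adjusted p = 0.032) or WT graft 1 of day 17 (-0.50, adjusted p = 0.0185). Lag3 averaged 20.8 ± 4.52 and 25.7 ± 26.6, with adjusted p = 0.99. Cd160, with 54 UMIs over 16 grafts, lay under the filter on low counts, and its means of 3.6 CPM at day 10 and 2.25 at day 17 gave p = 0.224 in a two-sided exact permutation test within genotypes (4900 assignments).

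In regulatory T cells 2 grafts of day 17 with 6 and 8 cells were left out. Of 5 members tested, 1 passed (1 higher and 0 lower), against 15.7% of 2331 genes (7.89% higher and 7.81% lower, or 184 and 182 genes). Without TMM scaling, 295 genes were called higher and 107 lower, with the median of all genes moved by 0.11.

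Tox in regulatory T cells stood at 809, 1110, 929 and 675 CPM in WT grafts at day 10 and at 1871, 701 and 1320 at day 17. The Rnls mut grafts were at 764, 749, 344 and 1054 at day 10 and at 1121, 1372 and 1221 at day 17. The days did not overlap in Rnls mut grafts and overlapped in WT grafts. The log2 fold change was 0.60 ± 0.20 (adjusted p = 0.039). This call is close to the threshold: it was lost with DESeq2 (0.61, adjusted p = 0.051), with a minimum of 20 cells per graft (0.18, adjusted p = 0.63) and when any 1 of 11 of the 14 grafts was left out (0.41 to 0.62 among these), while without WT graft 3 of day 17 it rose to 0.78 (adjusted p = 0.0025).

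Ctla4 in regulatory T cells averaged 1782 ± 243 CPM at day 10 (SD, n = 8) and 2173 ± 497 at day 17 (n = 6), a log2 fold change of 0.20 ± 0.13 that did not pass (adjusted p = 0.30). Havcr2 averaged 134 ± 54.1 and 72.2 ± 65.7 (-0.75 ± 0.36, adjusted p = 0.16). Without WT graft 3 of day 17, with 0.33 for Ctla4 (adjusted p = 0.027) and -2.30 for Havcr2 (adjusted p = 0.0020), both passed. Tigit averaged 149 ± 51.2 and 107 ± 47.3 (adjusted p = 0.23) and Pdcd1 91.7 ± 69.1 and 97.8 ± 78.4 (adjusted p = 0.98). Lag3, with 39 UMIs, averaged 14.2 and 39.3 CPM (two-sided exact permutation test, p = 0.140), and Cd160 had 3 UMIs, all at day 10 (exact p = 0.510).

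Transcripts of other cells in the T cells also differed between groups. The summed level of macrophage and monocyte markers in CD8 T cells was 412 to 471 CPM in WT grafts and 249 to 314 in Rnls mut grafts at day 10, and 425 to 821 and 1308 to 1716 at day 17. The ranges in CD4 T cells were 354 to 383, 236 to 286, 424 to 519 and 1279 to 1502, and in regulatory T cells 494 to 625, 407 to 534, 642 to 1044 and 1176 to 1862. Rnls mut grafts of day 17 held the highest sums in all 3 types, and the WT ranges of CD8 T cells overlapped between days. The T cells of that group also had the lowest depth. CD8 T cells had a median of 2409 (WT) and 2748 (Rnls mut) UMIs at day 10 and 4098 and 2161 at day 17. The medians were 2695.5, 2998, 4336.5 and 2298 in CD4 and 2316.5, 2579, 3630.5 and 2036 in regulatory T cells. Dendritic cell markers in CD8 T cells summed to 166 to 189 CPM at day 10 and 594 to 720 at day 17 in Rnls mut grafts, against 287 to 336 and 170 to 419 in WT grafts, whose median was lower at day 17 (275 against 295). In CD4 T cells they summed to 140 to 238 and 580 to 733 in Rnls mut and 241 to 308 and 206 to 438 in WT grafts, and in regulatory T cells to 314 to 534 and 1007 to 1121, and 384 to 632 and 231 to 709. The NK and ILC1 marker sum in CD8 T cells was, for Rnls mut grafts, 67.5 to 94.7 at day 10 and 174 to 244 at day 17, against 99.4 to 133 and 49.9 to 149 for WT. Neither sum is specific. Dendritic cell markers had a median of 21358.5 CPM in macrophages against 23355.1 in dendritic cells. NK and ILC1 markers had 1427 in macrophages, 1737 in monocytes and 4436 in granulocytes, against 2715 in NK cells. So these sums cannot be told apart from transcripts of macrophages and monocytes. Markers of regulatory T cells, which held the highest Tox and Ctla4, summed in CD8 T cells of the Rnls mut group to 193 to 281 and 281 to 410, and in the WT group to 261 to 335 and 90.0 to 344, with medians of 252 and 349 and of 265 and 189. Beta cell markers were at 0 in all. Tox was at or near 0 in macrophages, monocytes and dendritic cells, and Ctla4 had medians there of 1.91 to 4.96 CPM. Havcr2 is carried by macrophages, monocytes and dendritic cells too. The part of these transcripts in the day differences of Tox, Ctla4 and Havcr2 was not tested.

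CD8 T cells with a UMI of Cd4, the co-receptor of the other lineage, were 3.27% and 2.29% of WT and Rnls mut CD8 T cells at day 10 and 21.0% (35 of 167) and 15.2% (62 of 409) at day 17. In an alternative chosen after seeing the data, these cells were left out, with cells carrying a Cd8a or Cd8b1 UMI left out of the other T cell types. In CD8 T cells, Tox was then 1.86 ± 0.25 higher on the log2 scale (adjusted p = 1.9e-06), Ctla4 0.80 ± 0.23 higher (adjusted p = 0.0125) and Havcr2 changed by -2.21 ± 0.14 (adjusted p = 3.2e-13). Within single genotypes Ctla4 no longer passed, at 0.97 in WT (adjusted p = 0.0625) and 0.63 in Rnls mut grafts (adjusted p = 0.235). The 3 calls in CD4 T cells held, at 1.22 for Tox, 1.15 for Ctla4 and -1.87 for Havcr2.

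The deposited clusters divide the T cells further, and the day differences were followed inside them as a description. Cluster 3 held 1780 CD8 T cells. Its Havcr2 ran from 378 to 565 CPM over grafts at day 10 and from 29.0 to 193 at day 17, its Tox from 21.0 to 78.2 and from 44.5 to 306, and its Ctla4 from 90.5 to 244 and from 75.4 to 685. Cluster 9 held 986 CD8 T cells, with Havcr2 at 462 to 662 and 52.1 to 254, Tox at 49.7 to 148 and 260 to 723, and Ctla4 at 136 to 268 and 260 to 873. Tox in cluster 9 and Havcr2 in both clusters did not overlap between days, so the lower Havcr2 was seen inside clusters present at both days.

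**Figure D4:**
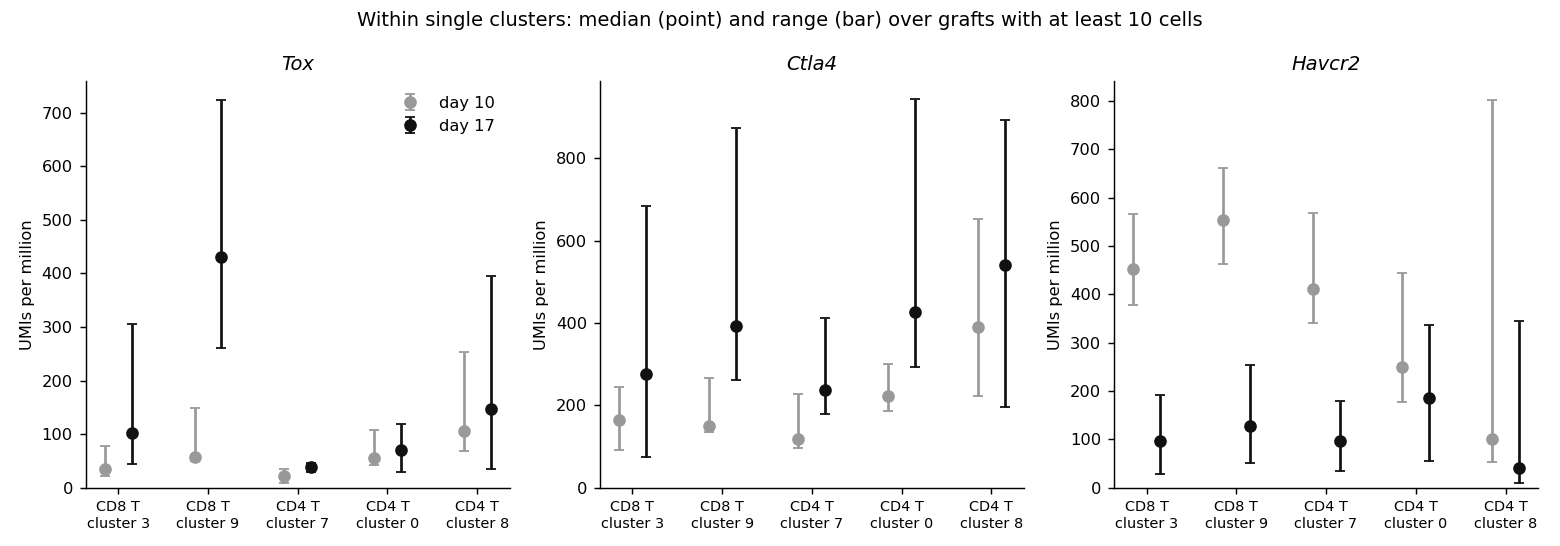
Tox, Ctla4 and Havcr2 (CPM) in CD8 T cell clusters 3 and 9 and CD4 T cell clusters 7, 0 and 8 at days 10 and 17; points are medians over grafts and lines the range. Havcr2 lies lower at day 17 in CD8 clusters 3 and 9 and in CD4 cluster 7, whose ranges do not overlap between days.

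Among CD4 T cells, cluster 7 (1367 cells) also held both days, with Havcr2 at 340 to 569 CPM at day 10 and 34.3 to 180 at day 17, Ctla4 at 95.5 to 226 and 180 to 411, and Tox at 8.0 to 35.6 and 30.0 to 46.4. Most other CD4 T cells were in clusters that followed the day. Cluster 0, led by Ccl1, Il2 and the heat shock gene Hspa1a, held a median of 61.7% of WT and 56.3% of Rnls mut CD4 T cells at day 10 and 9.8% and 5.1% at day 17. Cluster 8, whose leading genes include Tbc1d4 and Lef1, held 3.1% and 5.6% at day 10 and 72.4% and 68.7% at day 17. So the CD4 T cells compared between days lay mostly in different clusters, and in cluster 7 the Tox ranges overlapped.

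The smallest CD8 cluster, number 26, had 44 cells and was led by Ccl4, Jun, Ccl3 and Fos. Summed over its cells, Tox stood at 635 CPM, Ctla4 at 694 and Havcr2 at 655. Pdcd1 stood at 323, Tigit at 87.98, Lag3 at 68.4 and Cd160 at 0. All but Cd160 were higher than in any other CD8 cluster, so this was not particular to the 3 moving members. No graft reached the minimum of 10 cells in this cluster, so its levels have no range over grafts. Its 23 cells of day 10 had Tox at 116 and its 21 cells of day 17 at 1164 CPM, and Havcr2 in them was at 446 and 868. It held a median of 0.4% and 1.1% of WT and Rnls mut CD8 T cells at day 10 and 4.6% and 3.4% at day 17.

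Whether the receptors were found in the same cells as Tox was examined at 1000 UMIs per cell. At day 10, 114 CD8 T cells held a Tox UMI and 2759 did not, and Pdcd1 was found in 28.1% and 9.8% of them, Ctla4 in 14.9% and 12.5% and Havcr2 in 30.7% and 34.5%. At day 17, 88 cells held one and 488 did not, with Pdcd1 in 20.5% and 8.0%, Ctla4 in 46.6% and 17.6%, Havcr2 in 19.3% and 7.8%, Lag3 in 11.4% and 1.4% and Tigit in 11.4% and 3.5%. Pdcd1 had a higher share in cells with Tox at both days. The shares of Ctla4, Havcr2, Lag3 and Tigit at day 17 were also higher in cells with Tox. Cells of 1 graft are not replicates, and these shares are given with no test.

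**Figure D5:**
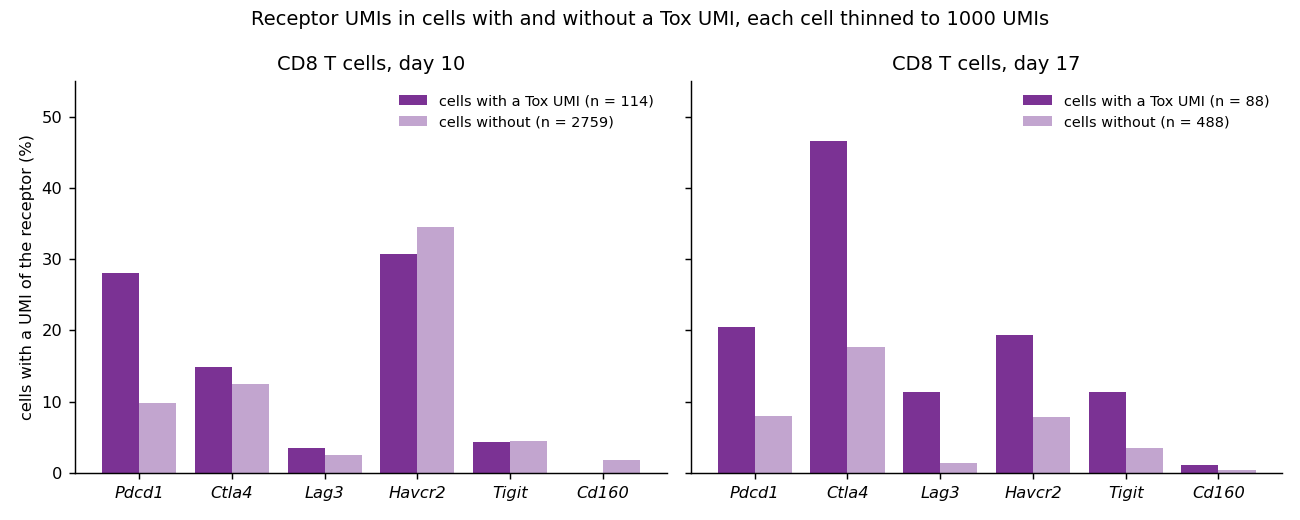
Share (%) of CD8 T cells with a UMI of each receptor among cells with and without a Tox UMI, at days 10 and 17, each cell thinned to 1000 UMIs. At day 17 Ctla4 was found in 46.6% of the 88 cells with a Tox UMI and in 17.6% of the 488 cells without.

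The 163 CD4 T cells with a Tox UMI at day 10 held Pdcd1 in 12.3% (7.3% of the 3328 others) and Havcr2 in 11.7% (22.2%). At day 17 the 146 cells with Tox held Pdcd1 in 16.4% (6.3% of 1239) and Ctla4 in 39.7% (32.9%). Havcr2 was then in 2.7% of cells with Tox (5.6% of the others), the opposite order to CD8 T cells at that day. At the same depth, cells with UMIs of 3 or more of the 7 genes were 2.2% and 1.8% of WT and Rnls mut CD8 T cells at day 10 (1562 and 1311 cells). At day 17 they were 10.8% and 3.4% (167 and 409 cells). These shares pool the cells of all grafts, and 81 of the 167 WT cells came from graft 1. They have no range over grafts and were not tested between genotypes.

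The third question was whether the 7 genes in T cells differed between Rnls mut and WT grafts. No member passed in any T cell type. Over both days, 0.0127% of genes passed in CD4 T cells (1 gene), 0% in CD8 T cells and 0% in regulatory T cells. In CD8 T cells edgeR called 0 genes, with 425 at an unadjusted p under 0.05, and DESeq2 called 3. In regulatory T cells both called 0, with 147 at an unadjusted p under 0.05 with edgeR. The log2 fold change of Rnls mut over WT was -0.18 for Tox, -0.36 ± 0.20 for Ctla4, 0.06 for Havcr2, -0.49 ± 0.25 for Lag3 and -0.59 ± 0.18 for Tigit in CD8 T cells, with adjusted p from 0.55 to 0.98. The same value in CD4 T cells was -0.25 ± 0.30 for Tox, -0.26 ± 0.18 for Ctla4, -0.05 ± 0.32 for Havcr2 and -0.79 ± 0.31 for Lag3, the last with adjusted p = 0.45. A miss of the threshold does not show that the genotypes were alike.

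Whether the genotype difference itself changed between days was tested as an interaction, which 0.658% of genes passed in CD8 T cells (42 genes), 0.636% in CD4 T cells (50) and 1.12% in regulatory T cells (26). No member passed. The values for Tox were -0.34 ± 0.50 in CD8 and 0.37 ± 0.60 in CD4 T cells, and those for Havcr2 0.07 and -1.02 ± 0.63.

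By the adjusted p of this test, Lag3 in CD8 T cells was the nearest member. It stood at 30.3, 22.9, 14.0 and 25.5 CPM in WT grafts at day 10 and at 71.2, 30.0, 103 and 59.9 at day 17, while Rnls mut grafts were at 28.0, 42.4, 31.6 and 32.8 and then at 27.4, 14.2, 31.6 and 0. At day 17 the WT and Rnls mut ranges overlapped only between 30.0 and 31.6, and the values rest on 45 and 21 UMIs. The median depth of these cells was 4098 UMIs in WT and 2161 in Rnls mut grafts, and its part was not tested. Within WT grafts the log2 fold change from day 10 to day 17 was 1.28 ± 0.33 (adjusted p = 0.0104) and within Rnls mut grafts -0.66 ± 0.38 (adjusted p = 0.30). The difference between these was -1.94 ± 0.49 with adjusted p = 0.070, which did not pass. It passed with DESeq2 (-1.99, adjusted p = 0.0192), without the filter on low counts (-1.91, adjusted p = 0.0112), without the 5% of cells with the most UMIs (-2.47, adjusted p = 0.0257), with a block on the hashtag number (-2.04, adjusted p = 0.0253), and without WT graft 2 of day 17 (-2.20, adjusted p = 0.0185) or WT graft 1 of day 10 (-2.10, adjusted p = 0.044). Without cells that held a Cd4 UMI it was -1.79 with adjusted p = 0.290. The rise within WT grafts was lost without cells that held a Cd4 UMI (0.85, adjusted p = 0.258) and without WT graft 1 of day 17 (1.09, adjusted p = 0.137).

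Tigit in CD8 T cells of WT grafts was at 44.5, 57.2, 48.2 and 43.3 CPM at day 10 and at 108, 55, 41.3 and 89.9 at day 17, and in Rnls mut grafts at 43.5, 45.2, 41.5 and 56.6 and at 39.6, 35.5, 23.7 and 66.4. The groups overlapped. The genotype value at day 17 was -1.09 ± 0.32 (adjusted p = 0.19) and the interaction -0.99 ± 0.37 (adjusted p = 0.33). Cd160 in CD4 T cells averaged 1.69 CPM in Rnls mut and 4.15 in WT grafts (two-sided exact permutation test within days, p = 0.0392), from 54 UMIs. This was the lowest of 6 such tests and was not corrected for their number.

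The members were then set beside other genes of T cell activation, from lists written with results of these data known, and each list is described by its counts at day 17 against day 10. Among 14 other inhibitory receptors, 2 of 9 tested were higher and 1 lower in CD4 T cells: Cd5, which dampens T cell receptor signaling, at 0.56 ± 0.08 (adjusted p = 1.8e-05), Lilrb4a at 0.79 ± 0.14 (adjusted p = 0.00013) and Klrg1 at -1.11 ± 0.24 (adjusted p = 0.00087). For CD8 T cells 0 of 7 were higher and 1, Klrg1, was lower (-0.57 ± 0.16, adjusted p = 0.011), and in regulatory T cells none of 5 passed. The share of all genes called in either direction was 36.6% in CD4, 21.4% in CD8 and 15.7% in regulatory T cells, and the counts of this list lay under it. Its medians were 0.26, -0.06 and 0.25, against 0.01, 0.01 and -0.01 over all genes tested.

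Of 16 transcription factors linked to chronic stimulation, 5 of 15 tested were higher and 2 lower in CD8 T cells. Maf rose by 2.45 ± 0.24 on the log2 scale (adjusted p = 1.5e-08), Irf4, which responds to the strength of antigen signals, by 1.57 ± 0.21 (adjusted p = 2.9e-06) and Nr4a2, an early target of NFAT, by 1.02 ± 0.13 (adjusted p = 1.0e-06), while Runx3 was at -0.61 ± 0.12 (adjusted p = 0.00034) and Id2 at -0.48 ± 0.13 (adjusted p = 0.0084). For CD4 T cells 6 of 15 were higher and 1 lower, among them Nr4a3 at 1.38 ± 0.11 (adjusted p = 2.4e-09) and Nr4a1 at 1.37 ± 0.11 (adjusted p = 5.2e-09). In regulatory T cells 4 of 9 were higher and 0 lower, with Ikzf2, the regulatory T cell factor Helios, at 0.74 ± 0.10 (adjusted p = 2.0e-05) and Nr4a1 at 1.83 ± 0.26 (adjusted p = 2.9e-05). The medians were 0.39, 0.29 and 0.49. Of all genes tested, 21.4% passed in CD8, 36.6% in CD4 and 15.7% in regulatory T cells.

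The next list held genes of resting, progenitor and memory T cells. Of its 13 genes, 8 were higher and 2 lower in CD4 T cells (median 0.79), with Klf2 at 0.85 ± 0.11 (adjusted p = 5.5e-06), Bach2 at 0.91 ± 0.13 (adjusted p = 9.0e-06) and Bcl6 at 0.91 ± 0.14 (adjusted p = 3.7e-05), and S1pr1, needed to leave tissue, at -0.49 ± 0.18 (adjusted p = 0.032). For CD8 T cells 5 of 11 were higher and 2 lower (median 0.42), with Klf2 at 0.95 ± 0.15, Lef1 at 0.78 ± 0.13 and Bcl6 at 1.01 ± 0.20. In regulatory T cells 1 of 8, Bach2 at 0.88 ± 0.23 (adjusted p = 0.010), was higher and 1, S1pr1 at -0.86 ± 0.25 (adjusted p = 0.021), was lower. The share of all genes that passed was 36.6% in CD4, 21.4% in CD8 and 15.7% in regulatory T cells.

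Effector genes were split. The granzymes Gzma and Gzmb, proteases that kill target cells, fell by 1.80 ± 0.20 and 1.50 ± 0.20 on the log2 scale in CD8 T cells (adjusted p = 2.2e-07 and 2.9e-06) and by 2.34 ± 0.27 and 1.75 ± 0.29 in CD4 T cells, and Ifng fell by 1.14 ± 0.33 in CD4 T cells (adjusted p = 0.0095). The chemokines Ccl3 (1.79 ± 0.35, adjusted p = 0.00041) and Ccl4 (1.75 ± 0.28, adjusted p = 4.2e-05) rose in CD8 T cells. In all, 2 of 12 effector genes were higher and 2 lower in CD8 T cells, 2 and 4 of 11 in CD4 T cells and 0 and 1 of 3 in regulatory T cells. Among all genes tested, 21.4%, 36.6% and 15.7% passed in these types.

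Of 9 costimulatory receptors, 5 were higher and 2 lower in CD4 T cells, 2 and 2 in CD8 T cells, and 0 and 2 of 7 tested in regulatory T cells. Cd28, which shares its ligands with Ctla4, was higher in CD4 (0.59 ± 0.10, adjusted p = 0.00012) and CD8 T cells (0.44 ± 0.08, adjusted p = 0.00030). Tnfrsf18 (GITR) was lower in all 3 types, at -0.34 ± 0.13 in CD4 (adjusted p = 0.041), -0.39 ± 0.12 in CD8 (adjusted p = 0.026) and -0.52 ± 0.12 in regulatory T cells (adjusted p = 0.0035). Of the cycling genes 0 of 3 tested passed in CD8 T cells and 4 of 7 were lower in CD4 T cells. Both lists stand beside 36.6% of all genes passing in CD4, 21.4% in CD8 and 15.7% in regulatory T cells.

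Immediate early and heat shock genes, which also respond to cell isolation, moved between the same libraries. Hspa1a was at -5.19 ± 0.48 in CD8 T cells (adjusted p = 4.3e-09), -5.18 ± 0.38 in CD4 T cells and -3.98 ± 0.62 in regulatory T cells, and Junb at 1.01 ± 0.11, 1.14 ± 0.08 and 0.91 ± 0.14. Over all genes tested, 21.4% passed in CD8, 36.6% in CD4 and 15.7% in regulatory T cells. Of the 10 genes, 5 were higher and 3 lower in CD8 T cells, 7 and 3 in CD4 T cells, and 2 and 3 of 9 in regulatory T cells. Their part in the day differences of Tox, Ctla4 and Havcr2 was not tested.

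The partners of the receptors were read in the antigen-presenting cells of the same grafts, as a description over 8 grafts per day (7 for monocytes at day 17). Cd274 (PD-L1), the ligand of PD-1, had a median of 574 CPM (421 to 676) in macrophages at day 10 and 268 (155 to 409) at day 17, with no overlap, and 561 (341 to 794) and 248 (53.0 to 418) in dendritic cells. Pdcd1lg2 (PD-L2), the other ligand of PD-1, was at 180 (105 to 230) and 51.8 (3.5 to 105) in macrophages and at 198 (131 to 281) and 45.1 (27.9 to 112) in dendritic cells. The medians of both ligands of PD-1 were thus lower at day 17 in macrophages and dendritic cells. Pdcd1 in T cells did not pass in the fit without a block. In monocytes Cd274 was at 681 (428 to 769) and 532 (350 to 743), and the days overlapped. Granulocytes held the highest Cd274, at 3603 (1765 to 5497, 7 grafts) and 2852 (1056 to 3161, 5 grafts), also with overlap.

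For CTLA-4, Cd80 in macrophages was at 71.8 (46.7 to 95.4) and 44.9 (41.4 to 71.8) CPM and Cd86 at 344 (270 to 402) and 430 (291 to 558), and the days overlapped for both. Lgals9 (galectin-9), a partner of TIM-3, was at 149 (103 to 156) and 73.0 (16.8 to 89.4) in monocytes, with no overlap, and at 125 (97.9 to 147) and 90.7 (76.0 to 108) in macrophages. Pvr, the ligand of TIGIT, was at 27.7 and 31.6 in macrophages and 44.5 and 51.1 in dendritic cells. Fgl1, a ligand described for LAG-3, had no UMI in these 3 cell types. Read in the T cells themselves, 0 of 7 ligand genes tested were higher and 1 lower in CD4 (Cd86, -0.69 ± 0.24, adjusted p = 0.028), 0 of 6 and 1 in CD8 (Cd80, -0.69 ± 0.23, adjusted p = 0.032) and 0 of 3 and 1 in regulatory T cells (Cd274, -0.53 ± 0.17, adjusted p = 0.039). All genes tested passed at 36.6%, 21.4% and 15.7% in these T cell types.

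Havcr2 itself differed in direction between myeloid types. In macrophages it was at 105 to 115 CPM in WT grafts at day 10 and 31.2 to 76.3 at day 17, and at 83.4 to 171 and 29.8 to 46.9 in Rnls mut grafts. In dendritic cells it was at 114 to 164 and 196 to 336 in WT and at 59.9 to 207 and 264 to 387 in Rnls mut grafts. Within each genotype the days did not overlap in either type, lower at day 17 in macrophages and higher in dendritic cells. In monocytes the ranges overlapped (144 to 281 and 36.2 to 368 in WT, 125 to 291 and 237 to 341 in Rnls mut grafts).

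Over the 141 sums of a cell type in a graft, the genes whose level followed each member most closely were listed by Pearson's r of log2(CPM + 1) among 9642 genes. The sums share 4 libraries and differ in depth, and the values are a description. Tox was nearest to Cd2, Gimap3 and Gimap7 (r of 0.94 each), Tigit to Cd28 and Cd2 (0.93 each) and Gimap3 (0.92), Pdcd1 to Icos (0.91), Camk4 (0.89) and Thy1 (0.87), and Ctla4 to Icos (0.90), Trac (0.89) and Cd5 (0.88). Cd160 was nearest to Klre1 (0.84), Prf1 (0.83) and Samd3 (0.81). Lag3, at 0.69 with Stard10, 0.67 with Lnx2 and 0.66 with Sla2, and Havcr2, at 0.62 with Ass1 and 0.56 with Nedd8 and Bri3bp, had no gene as close.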

How the data were processed

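CD45+ cells of 16 NIT-1 grafts were measured by 10x Genomics 3' v3.1 single-cell RNA sequencing with hashtag antibodies. The deposited files are a matrix of UMI counts, which the authors did not normalize, and a table of library, graft, cluster and cell type for each cell. Per the labels, the submitters' processing notes name Cell Ranger and mm10; their versions, the hashtag assignment, the filters on cells and the clustering settings are not given in the sources used here. The hashtag libraries were not used here, and 0 columns belonged to other series. The authors' cell types and clusters were used as deposited.

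UMI counts were summed per graft and T cell type, leaving out grafts with fewer than 10 cells, and tested with edgeR 4.0.16 (TMM, filterByExpr, glmQLFit, glmQLFTest) in R 4.3.3 over the 4 groups of genotype and day. Contrasts were the day over both genotypes, the genotype over both days, each within the other, and their interaction, with Benjamini-Hochberg adjustment over all genes tested and a threshold of 0.05. Members under the filter were compared by two-sided exact permutation tests (SciPy 1.17.1). Levels are CPM of all UMIs of the type in the graft, and intervals and SDs are over grafts. Shares of cells with a UMI were also taken after thinning each cell to 1000 UMIs (seed 7). Python 3.11.15, NumPy 2.4.6, pandas 2.3.3 and matplotlib 3.10.9 were used, and the model was tested on simulated data.

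The members and lists were chosen with earlier results of these data known. Named were all members, at most 3 genes per direction of each list that passed the threshold in a T cell type, ranked by p, the 3 genes nearest to each member (mean of at least 5 CPM, pseudocount 1), the type markers and the ligands. The alternatives were DESeq2 1.42.0, library size without TMM, no filter, 1 or 20 cells per graft, hashtag number as a block, single genotypes or days, leaving out the 5% of cells with the most UMIs, and each graft left out; leaving out cells with the other co-receptor was chosen after seeing the data. No doublet caller was run. The study describes WT and Rnls mut grafts on the same mice and 4 paired biological replicates, but which hashtag numbers share a mouse is not given in the sources used here, so grafts were tested unpaired and p-values measure the spread between grafts.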

Additional observations from a re-analysis of the deposited data

Results flagged for a closer look

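In 12 of 70 groups of 4 grafts, 1 graft lay apart from the other 3 by more than Dixon's critical value for the gap over the range. The limit flags about 1 in 20 groups only if values are independent and normal. These groups share grafts, and some hold 0 in all grafts but 1, so no excess over chance can be read from the count. WT graft 1 of day 10 was the distant graft in 5 of the 12. In its CD8 T cells, Ctla4 was at 251 CPM (135 to 140 in the others), Tox at 72.0 (35.1 to 38.9) and Havcr2 at 597 (482 to 493), in its CD4 T cells Havcr2 was at 222 (282 to 292), and in its regulatory T cells Cd160 was at 6.13, from 1 UMI, with 0 in the others.

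Rnls mut graft 1 of day 10 stood apart in CD4 T cells for Tox, at 94.3 (34.8 to 40.2), and for Pdcd1, at 150 (83.7 to 93.7). Rnls mut graft 3 of day 10 stood apart in regulatory T cells for Lag3, at 51.7 from 12 UMIs, and for Cd160, at 8.61 from 2 UMIs, both with 0 in the others. At day 17, WT graft 3 held Havcr2 at 358 in CD4 T cells (16.5 to 53.9) and Rnls mut graft 3 held it at 233 in CD8 T cells (107 to 117). WT graft 2 of day 10 held Cd160 at 8.79 in CD8 T cells (19.1 to 21.1). The causes were not tested.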

How the results depend on the processing

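No called member reversed its direction under any alternative. The number of genes called, day 17 against day 10, was 2874 in CD4, 1365 in CD8 and 366 in regulatory T cells; WT grafts alone gave 1148, 595 and 145, Rnls mut grafts alone 744 in CD8 and 187 in regulatory T cells, and DESeq2 232 in regulatory T cells. For the genotype the counts were 1, 0 and 0; day 10 alone gave 72, 50 and 6, day 17 alone 22, 15 and 1, no filter on low counts 63, 16 and 2, DESeq2 5 in CD4 and 3 in CD8 T cells, and the fit without cells of the other co-receptor 3 in CD4 T cells. For the interaction they were 50, 42 and 26; no filter gave 138, 79 and 47, and a minimum of 1 or 20 cells gave 11 or 67 in regulatory T cells. Leaving out 1 graft gave 0 to 3 (CD4) and 0 to 1 (CD8) for the genotype, and 22 to 46 (CD8) and 11 to 42 (regulatory) for the interaction; the lowest were without Rnls mut graft 2 of day 10 (CD4, genotype), graft 1 of day 17 (CD8) and graft 3 of day 10 (regulatory), the highest without WT graft 1 (CD4, regulatory) or graft 2 (CD8) of day 17. Among members, WT grafts alone lost Havcr2 (-1.32, adjusted p = 0.10) and Tox (1.02, adjusted p = 0.16) in CD4 T cells. Without the filter, Tigit for the day (-0.40, adjusted p = 0.035), Lag3 for the genotype (-0.79, adjusted p = 0.0229) and Havcr2 for the interaction (-1.01, adjusted p = 0.0016) passed in CD4 T cells. The cause was not tested. Of members not called, 1 of 3 in CD4, 3 of 4 in CD8 and 2 of 4 in regulatory T cells changed sign in an alternative for the day, and 4 of 6, 5 of 7 and 4 of 5 for the genotype. Depth limits Lag3 and Cd160 most.

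With the hashtag number as a replicate block within a day, the genotype gave 15 genes in CD4 and 3 in CD8 T cells, the day 218 in regulatory T cells, and the interaction 75 in CD8 and 15 in regulatory T cells. Tigit (-0.41, adjusted p = 0.0188) and Pdcd1 (-0.29, adjusted p = 0.042) then passed for the day in CD4 T cells, and Tox in regulatory T cells did not (0.64, adjusted p = 0.067). Lag3 passed for the interaction in CD8 T cells (-2.04, adjusted p = 0.0253). The block lies within a day, so it takes the spread between hashtag numbers out of the error for the day. If the numbers stand for mice, these day p-values do not measure the spread between mice. The study paired grafts within mice, but hashtag numbers are not tied to mice, and the correlations of same-numbered grafts were not over 0.1 in every pair: they ran from -0.04 to 0.35 in CD4, -0.0018 to 0.34 in CD8 and -0.056 to 0.031 in regulatory T cells. Their medians were 0.088 and 0.121 (days 10 and 17) in CD4 and 0.063 and 0.027 in CD8 T cells, above those of grafts with other numbers (-0.055 and -0.033, -0.038 and -0.015), and 2 of 4 WT grafts at day 10 and 3 of 4 at day 17 correlated best with their own number in both CD4 and CD8 T cells, against 1 of 4 and 0 of 3 in regulatory T cells.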
